A study of Mus musculus with 5 samples.

Results

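The genes described here are Srebf2, which encodes the transcription factor SREBP2, the enzymes Hmgcs1, Sqle, Fdps, Idi1 and Lss of cholesterol synthesis, and Insig1, which holds SREBP2 back in the endoplasmic reticulum (ER). A gene was represented by a probe set that the platform annotation pairs with its symbol alone, and where a gene had several, the brightest by its mean would be taken. By this rule 6 of the 7 genes had 1 probe set each, among 23396 such probe sets for 22059 genes on the array. The probe set of Idi1, the isomerase that supplies the activated isoprenoid units, carries a further gene symbol and is therefore not reported. The paper describes the cells as primary cortical astrocytes of newborn FVB mice heterozygous for a LRRK2 transgene. A check of that cell type by marker levels is given below. The transgene was either the Parkinson's disease form G2019S (LRRK2-GS, 3 arrays) or the wild-type form (LRRK2-WT, 2 arrays). Cells of both genotypes had received tunicamycin, an inhibitor of N-linked glycosylation that stresses the ER, at 0.2 μg/ml for 3 h by the sample labels. The paper describes a longer treatment, and its legend for the array figure gives a lower dose than its methods. Both groups thus carry a transgene and the stressor, and the sources used here do not name the promoter that drives the transgenes. The paper also describes culture in serum-free medium to deplete microglia and meningeal cells. No array of untreated or non-transgenic cells was analysed here. The arrays are Affymetrix Mouse Gene 2.0 ST chips, and every value below is the deposited expression level on the log2 scale, or a difference of such levels as LRRK2-GS minus LRRK2-WT.

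SREBP2 is made as a precursor in the ER membrane. When sterol in that membrane is low, the escort protein SCAP carries it to the Golgi, where the proteases encoded by Mbtps1 and Mbtps2 release the part that enters the nucleus, and when sterol is high the INSIG proteins keep SCAP and SREBP2 in the ER. The released factor binds sterol regulatory elements, often beside NF-Y and Sp1 boxes, and turns on nearly every enzyme between acetyl-CoA and cholesterol, together with Insig1 and Srebf2 itself. Astrocytes are the main source of cholesterol in the brain, hepatocytes the main source for the blood. The same pathway yields the dolichol on which the sugar chain of N-linked glycosylation is built, the step that tunicamycin blocks.

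The promoter windows of 4 measured genes are shown, the only measured ones with a window in the sequences used. Sqle and Fdps had none. Each window runs from 250 bases before to 50 bases after the annotated start (RefSeq, build GRCm38.p6, all on the plus strand), at chr13:119690101-119690400 for Hmgcs1, chr10:76531355-76531654 for Lss, chr15:82147019-82147318 for Srebf2 and chr5:28071162-28071461 for Insig1. Capitals mark matches, on either strand, to the sterol regulatory element TCACNCCAC and to the NF-Y box CCAAT.
Hmgcs1: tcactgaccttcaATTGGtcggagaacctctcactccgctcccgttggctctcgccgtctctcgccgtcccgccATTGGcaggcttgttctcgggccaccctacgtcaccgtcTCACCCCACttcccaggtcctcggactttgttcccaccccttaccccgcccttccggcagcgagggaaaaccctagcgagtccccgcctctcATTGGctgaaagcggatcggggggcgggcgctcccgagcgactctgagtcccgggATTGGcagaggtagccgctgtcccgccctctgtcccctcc
Lss: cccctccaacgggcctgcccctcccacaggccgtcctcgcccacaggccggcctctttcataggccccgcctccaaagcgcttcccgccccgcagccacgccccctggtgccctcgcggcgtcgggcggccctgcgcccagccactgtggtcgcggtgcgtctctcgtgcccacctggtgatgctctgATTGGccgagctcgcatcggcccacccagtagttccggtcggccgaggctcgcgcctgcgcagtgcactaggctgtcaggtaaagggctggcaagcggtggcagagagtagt
Srebf2: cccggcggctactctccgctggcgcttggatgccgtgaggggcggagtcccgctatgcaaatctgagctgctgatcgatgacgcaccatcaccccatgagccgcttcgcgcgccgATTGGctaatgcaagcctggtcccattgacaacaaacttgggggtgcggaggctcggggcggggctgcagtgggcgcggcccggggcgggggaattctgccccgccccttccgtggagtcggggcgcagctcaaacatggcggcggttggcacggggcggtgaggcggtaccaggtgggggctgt
Insig1: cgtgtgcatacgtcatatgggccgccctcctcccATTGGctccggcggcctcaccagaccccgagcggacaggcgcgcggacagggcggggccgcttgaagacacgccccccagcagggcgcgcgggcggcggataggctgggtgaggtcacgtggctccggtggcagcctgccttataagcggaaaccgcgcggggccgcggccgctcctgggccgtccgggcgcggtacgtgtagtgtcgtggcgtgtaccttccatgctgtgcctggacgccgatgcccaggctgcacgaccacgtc

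Of the 7 genes, 5 had such a window (the 4 above and Idi1). The sterol element was found in Hmgcs1 alone among them, as TCACCCCAC beginning at position -137, where 1 is the start site. Across all 32851 windows of this length in the table, 1.24% held it. The NF-Y box occurred 4 times in Hmgcs1, 1 time each in Lss, Srebf2 and Insig1 and 2 times in Idi1, against 37.4% of all windows with at least 1. The Sp1 box GGGCGG was present 5 times in Srebf2, 3 times each in Hmgcs1 and Insig1, 2 times in Lss and 1 time in Idi1 (35.7% of all windows), and the E-box CANNTG was present in all 5 (72.3%), in Hmgcs1 overlapping the first NF-Y box. Among the 16 cholesterol synthesis enzymes with a window, counting any window of a gene, 15 held an NF-Y box, 15 a Sp1 box and 1 the sterol element. A match is a string of letters, and its absence from so short a window says nothing about binding.

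The labelled cell type and the arrays were checked first. Background was set at 3.39, the level under which 95% of 1107 probe sets for olfactory receptors lay, and 5 of 15 astrocyte markers, including the water channel gene Aqp4 and S100b, had a mean no higher than that. On every array all 14 measured hepatocyte markers were among the probe sets brighter than 90% of those tested (over 6.42), and the level of Alb was 12.55 to 12.66 in LRRK2-GS and 12.62 to 12.69 in LRRK2-WT. The levels below therefore cannot be assigned to astrocytes, and in bulk RNA fewer cells of a type and less RNA per cell cannot be told apart. The genotypes also differed in sex-linked genes, with Xist at 2.41 to 2.65 in LRRK2-GS and 8.09 to 8.49 in LRRK2-WT and Eif2s3y at 6.13 to 6.68 in LRRK2-GS and 2.03 to 2.31 in LRRK2-WT, so genotype and the sex of the cells cannot be told apart. Whether the arrays came from separate cultures is not stated, and the p-values here cover no more than the spread among these 5 arrays. All 6 measured genes lay above the background level of 3.39 on every array, and no other probe set in the table shared their 5 values.

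The 4 measured enzymes among these genes did not separate the genotypes, and their LRRK2-GS arrays lay far apart. Hmgcs1, Sqle, Fdps and Lss were higher on LRRK2-GS arrays 1 and 2 than on both LRRK2-WT arrays, and lower on LRRK2-GS array 3 than on both. Mean differences were close to 0.5 on the log2 scale (about 1.4-fold) for these 4 enzymes, with confidence intervals that span 0 widely. Srebf2 itself had a smaller mean difference (0.26), and Insig1 did not follow the enzymes. The intervals of both also include 0. None of the 6 genes was called.

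**Figure D1:**
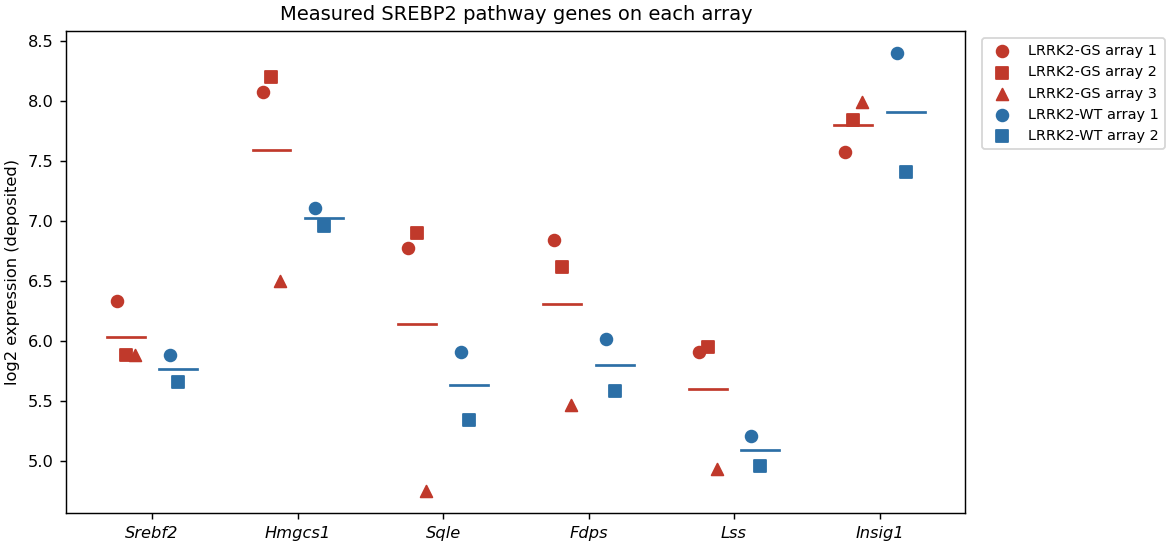
Deposited log2 expression (vertical axis) of the 6 measured genes on each array, with LRRK2-GS arrays in red left of LRRK2-WT arrays in blue and a bar at each group mean. For Hmgcs1, Sqle, Fdps and Lss the LRRK2-GS array 3 (triangle) is the lowest of the 5 and LRRK2-GS arrays 1 and 2 are the highest.

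Hmgcs1, cytosolic HMG-CoA synthase, makes HMG-CoA from acetoacetyl-CoA and acetyl-CoA early in the pathway (gene on chromosome 13). Its level was 8.08, 8.20 and 6.50 on LRRK2-GS arrays 1, 2 and 3, against 7.11 and 6.96 on LRRK2-WT arrays 1 and 2. The LRRK2-WT arrays thus lay within 0.15 of each other on the log2 scale, whereas the LRRK2-GS arrays spanned 1.69, a 3.24-fold range, on both sides of them. The group levels were 7.59 ± 0.95 in LRRK2-GS (SD, n = 3) and 7.03 ± 0.11 in LRRK2-WT (SD, n = 2), a difference of 0.56 (95% confidence interval -1.32 to 2.44, limma adjusted p = 0.826).

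Fdps makes farnesyl diphosphate, the branch point towards sterols, dolichol, ubiquinone and protein prenylation (chromosome 3). Its level was 6.84, 6.62 and 5.47 on LRRK2-GS arrays 1, 2 and 3, against 6.02 and 5.58 on LRRK2-WT arrays 1 and 2. Here too the LRRK2-WT arrays fell between LRRK2-GS array 3 and the other LRRK2-GS arrays. The difference was 0.51 (limma adjusted p = 0.826, 95% confidence interval -1.02 to 2.04), with 6.31 ± 0.74 in LRRK2-GS (SD, n = 3) and 5.80 ± 0.31 in LRRK2-WT (SD, n = 2).

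Sqle, squalene epoxidase, adds the oxygen that lanosterol synthesis needs and is a known control point of the pathway (chromosome 15). It had the widest spread of the 6, with levels of 6.78, 6.90 and 4.75 on LRRK2-GS arrays 1, 2 and 3, against 5.91 and 5.34 on LRRK2-WT arrays 1 and 2. LRRK2-GS arrays 2 and 3 were 2.15 apart on the log2 scale, a 4.45-fold range, compared with 0.57 between the LRRK2-WT arrays. The mean difference was 0.52 (limma adjusted p = 0.873, 95% confidence interval -1.94 to 2.97), with 6.14 ± 1.21 in LRRK2-GS (SD, n = 3) and 5.63 ± 0.40 in LRRK2-WT (SD, n = 2).

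Lss, lanosterol synthase, closes the sterol rings (chromosome 10). Its level was 5.91, 5.95 and 4.93 on LRRK2-GS arrays 1, 2 and 3, against 5.21 and 4.96 on LRRK2-WT arrays 1 and 2. The lowest LRRK2-GS and LRRK2-WT arrays were nearly level here, and LRRK2-GS arrays 1 and 2 stood above all others. Lss had the narrowest interval of the 4 enzymes, a difference of 0.51 (95% confidence interval -0.66 to 1.68, limma adjusted p = 0.826), with 5.60 ± 0.58 in LRRK2-GS (SD, n = 3) and 5.09 ± 0.18 in LRRK2-WT (SD, n = 2).

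Srebf2 (chromosome 15) varied less among the LRRK2-GS arrays than Hmgcs1, Sqle, Fdps and Lss. Its level was 6.33, 5.88 and 5.88 on LRRK2-GS arrays 1, 2 and 3, against 5.88 and 5.66 on LRRK2-WT arrays 1 and 2. The highest array was again an LRRK2-GS array, but the other LRRK2-GS arrays shared a value with LRRK2-WT array 1 (18203 of the 23396 tested probe sets hold exactly the same deposited value on at least 2 arrays). The difference was 0.26 (limma adjusted p = 0.826, 95% confidence interval -0.29 to 0.82), with 6.03 ± 0.26 in LRRK2-GS (SD, n = 3) and 5.77 ± 0.16 in LRRK2-WT (SD, n = 2). The probe set of Mir33, the microRNA in an intron of Srebf2, which was added outside the rule for named genes, lay under background on every array (1.26 to 1.44 in LRRK2-GS and 1.44 to 2.05 in LRRK2-WT).

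Insig1 (chromosome 5), the sterol-responsive ER anchor of SCAP and itself a textbook SREBP2 target, had another order of arrays. Its level was 7.58, 7.84 and 7.99 on LRRK2-GS arrays 1, 2 and 3, against 8.40 and 7.41 on LRRK2-WT arrays 1 and 2. The LRRK2-WT arrays were the highest and the lowest of the 5, and LRRK2-GS array 3, lowest for the enzymes, was the highest of its genotype. The difference was -0.10 (limma adjusted p = 0.992, 95% confidence interval -1.17 to 0.96), with 7.80 ± 0.21 in LRRK2-GS (SD, n = 3) and 7.91 ± 0.70 in LRRK2-WT (SD, n = 2). The sign turned when LRRK2-GS array 1 (0.01) or LRRK2-WT array 1 (0.39) was left out, and the difference was -0.60 when LRRK2-WT array 2 was.

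A gene was called at a limma adjusted p of at most 0.05 and a change over 1.5-fold, the thresholds of the methods, and 0 of the 6 were called, as were 0 of all tested probe sets (0%). The methods' t-test also called 0 of the 6 and 0 of all probe sets after adjustment, and at an unadjusted p under 0.05 it gave 0 of the 6 and 331 of all (1.41%). At an unadjusted p under 0.05, limma gave 0 of the 6 and 489 of all (2.09%). Over 1.5-fold, whatever the p, were 0 of the 6 in either direction, against 107 of all probe sets (0.457%) higher and 117 (0.5%) lower in LRRK2-GS. In 0 of the 6 did every LRRK2-GS array lie above both LRRK2-WT arrays, which 879 of all probe sets (3.76%) showed, and in 0 did every one lie below, as 876 (3.74%) did. 

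For Hmgcs1, Sqle, Fdps and Lss, leaving out LRRK2-GS array 3 moved the difference most. When it was left out, the difference was 1.11 for Hmgcs1, 1.21 for Sqle, 0.93 for Fdps and 0.84 for Lss. These 4 of the 6 genes were then over 1.5-fold higher in LRRK2-GS, as were 0.765% of all probe sets, and lay higher on both remaining LRRK2-GS arrays than on both LRRK2-WT arrays, as did 8.55% of all. At an unadjusted p under 0.05 limma gave the same 4 of the 6 and 3.92% of all probe sets, but after adjustment it called 0 of the 6 and 0 of all (0%), with an adjusted p of 0.551 for Hmgcs1 and 0.671 for the other 3. Array 3 was singled out for its values, so these figures describe the other 4 arrays and are no test of the genotype.

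The other arrays mattered too. With LRRK2-GS array 1 left out the differences were 0.31 for Hmgcs1, 0.20 for Sqle, 0.24 for Fdps, 0.35 for Lss and 0.11 for Srebf2. With LRRK2-GS array 2 left out they were 0.26 for Hmgcs1, 0.14 for Sqle, 0.36 for Fdps and 0.33 for Lss. With LRRK2-WT array 1 left out they were 0.64 for Hmgcs1, 0.80 for Sqle, 0.73 for Fdps and 0.64 for Lss, again 4 of the 6 over 1.5-fold higher (0.808% of all probe sets). With LRRK2-WT array 2 left out they were 0.48 for Hmgcs1, 0.23 for Sqle, 0.29 for Fdps, 0.38 for Lss and 0.15 for Srebf2. All 4 enzymes kept a positive difference in each of these fits, and limma called none of them.

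**Figure D2:**
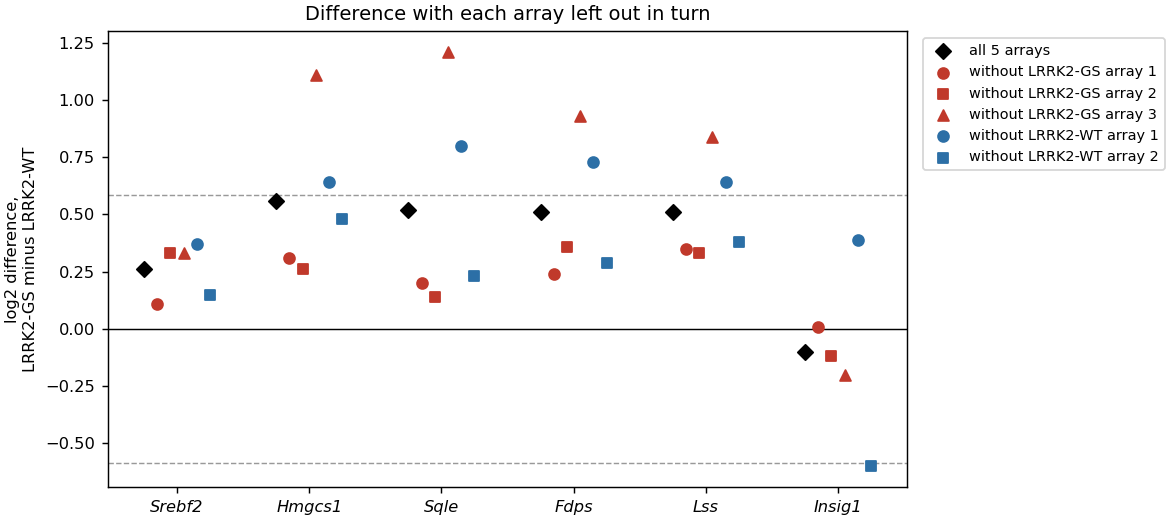
Log2 difference (vertical axis, LRRK2-GS minus LRRK2-WT) of the 6 measured genes with all 5 arrays and with each array left out in turn, with dashed lines at 1.5-fold. The 4 enzymes lie between 0.84 and 1.21 without LRRK2-GS array 3, and Insig1 lies on both sides of 0.

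The other enzymes of the pathway were then examined. Of 21 enzymes listed from acetyl-CoA to cholesterol, 17 had a probe set with 1 symbol, 11 of them higher in LRRK2-GS, 5 lower and 1 equal, with a median difference of 0.30 against 0.00 over all tested probe sets. Without Hmgcs1, Sqle, Fdps and Lss the other 13 were 7 higher, 5 lower and 1 equal, with a median difference of 0.09. limma called 0 of the 17, and 0 passed at an unadjusted p under 0.05. Among these 13, LRRK2-GS arrays 1 and 2 both lay above both LRRK2-WT arrays in 7, compared with 8.55% of all probe sets, and in 5 of the 7 LRRK2-GS array 3 also lay below both LRRK2-WT arrays, compared with 2.28% of all. Those 5 were Mvd, Cyp51, Msmo1, Nsdhl and Dhcr7, and the other 2 were Fdft1 and Hsd17b7. With the 4 enzymes in which the order was first seen, the counts were 11 and 9 of 17. This order was noticed in the data and is given as a description of these arrays. The shares over all probe sets include 1989 with the same value on all 5 arrays, which cannot show such an order. The median level of all tested probe sets was 3.59, close to the background of 3.39. Shares among brighter probe sets alone are not given here.

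**Figure D3:**
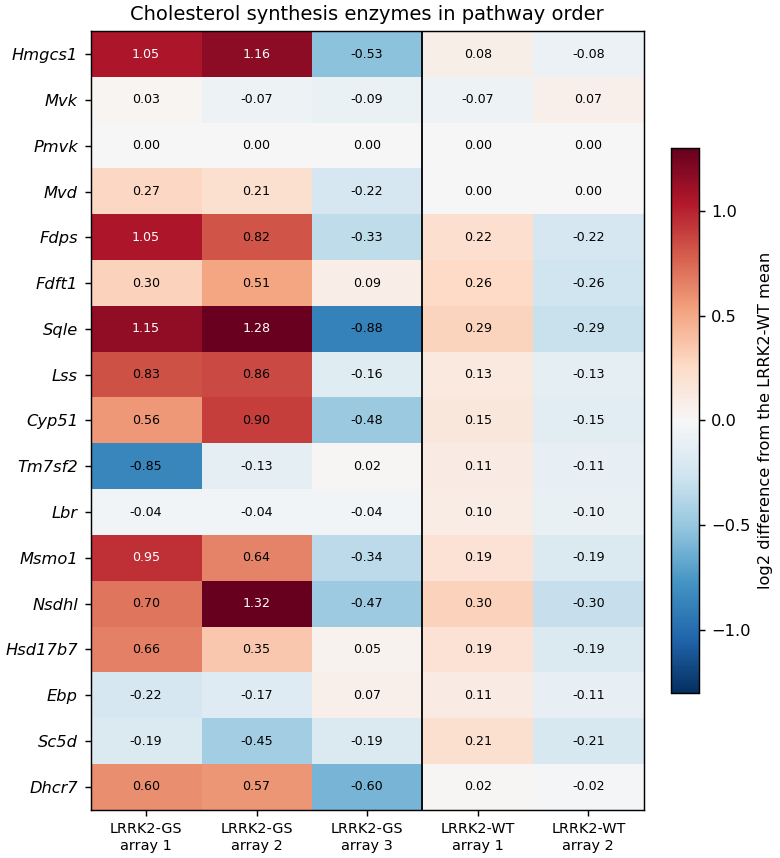
Level of the 17 measured cholesterol synthesis enzymes on each array (columns, LRRK2-GS left of LRRK2-WT) as the log2 difference from the LRRK2-WT mean, with rows from the first step to the last and red for higher. LRRK2-GS arrays 1 and 2 are red and array 3 is blue in 9 rows, array 3 is pale in Fdft1 and Hsd17b7, and Mvk, Pmvk, Tm7sf2, Lbr, Ebp and Sc5d show other colours.

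By step, 4 of the 6 measured enzymes up to squalene had LRRK2-GS arrays 1 and 2 above both LRRK2-WT arrays. Besides Hmgcs1 and Fdps these were Mvd, the decarboxylase that ends the mevalonate steps, and Fdft1, squalene synthase. Mvd was at 5.76, 5.71 and 5.28 on LRRK2-GS arrays 1, 2 and 3, against 5.49 on both LRRK2-WT arrays. The kinases Mvk (difference -0.04) and Pmvk (0.00, the same value on all 5 arrays) showed no such order. Both enzymes from squalene to lanosterol, Sqle and Lss, showed it.

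After lanosterol, 5 of the 9 measured enzymes had it, namely Cyp51, Msmo1, Nsdhl, Hsd17b7 and Dhcr7. Nsdhl, a demethylation enzyme on chromosome X, was at 5.92, 6.54 and 4.75 on LRRK2-GS arrays 1, 2 and 3, against 5.53 and 4.92 on LRRK2-WT arrays 1 and 2, a difference of 0.51 (95% confidence interval -1.38 to 2.41). Dhcr7, which makes cholesterol in the last step of one branch, was at 5.65, 5.62 and 4.45 on LRRK2-GS arrays 1, 2 and 3, against 5.07 and 5.03 on LRRK2-WT arrays 1 and 2. The reductases Tm7sf2 (difference -0.32) and Lbr (-0.04), the isomerase Ebp (-0.11) and the desaturase Sc5d (-0.28) did not have that order. Sc5d was at 8.52, 8.26 and 8.52 on LRRK2-GS arrays 1, 2 and 3, against 8.91 and 8.50 on LRRK2-WT arrays 1 and 2.

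**Figure D4:**
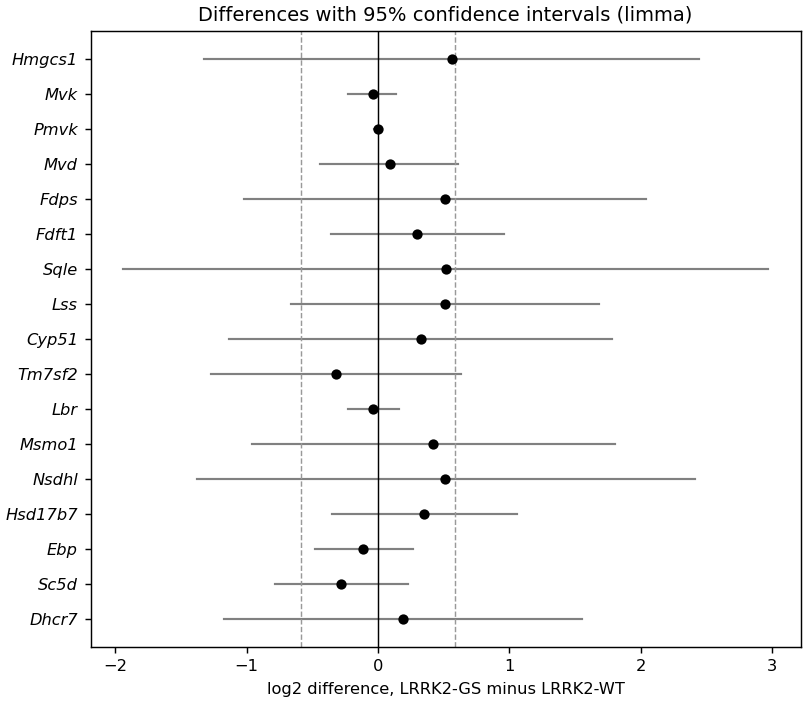
Log2 difference (horizontal axis, LRRK2-GS minus LRRK2-WT) of the 17 measured enzymes with limma's 95% confidence interval as a line and 1.5-fold dashed. Every interval includes 0, and those of Hmgcs1, Fdps, Sqle, Lss, Cyp51, Tm7sf2, Msmo1, Nsdhl and Dhcr7 extend past 1.5-fold on both sides.

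The 5 other genes with the pattern nearest to the mean of the 6 measured genes were sought among 11180 genes above the median level. Distance was the root mean square difference between log2 values centred on each gene's mean over the 5 arrays. The 6 were not all close to their own mean. Lss lay at 0.0904, Fdps at 0.137, Hmgcs1 at 0.272, Srebf2 at 0.323, Sqle at 0.413 and Insig1 at 0.556. The nearest was Msmo1, the sterol methyl oxidase (distance 0.111), with 6.75, 6.44 and 5.46 on LRRK2-GS arrays 1, 2 and 3, against 5.99 and 5.61 on LRRK2-WT arrays 1 and 2. It was followed by the keratin gene Krt18 (0.124), Csf2rb (0.126), a subunit of cytokine receptors, Cd5l (0.137), a secreted macrophage protein, and 2410006H16Rik (0.139). Cyp51 ranked 6, Dhcr7 8, Hsd17b7 26 and Fdft1 91, so that 5 of the 13 measured enzymes outside the described genes were among the nearest 100. At the other end, Tm7sf2 ranked 10793. With 5 arrays many profiles can look alike, and these ranks are a description without a test.

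The machinery that controls SREBP2 did not share the pattern. Of 11 listed genes 9 were measured, 3 higher, 5 lower and 1 equal, with a median difference of -0.10, and limma called 0 (0 also at an unadjusted p under 0.05). Scap, named outside the rule as the escort of SREBP2, was at 6.99, 6.72 and 6.87 on LRRK2-GS arrays 1, 2 and 3, against 7.18 and 6.96 on LRRK2-WT arrays 1 and 2. Srebf2 had the highest difference of the list (0.26), and Rnf145, a ubiquitin ligase of the sterol response, the lowest difference (-0.28), with every LRRK2-GS array below both LRRK2-WT arrays. In 0 of the 9 were LRRK2-GS arrays 1 and 2 both above the LRRK2-WT arrays.

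Other SREBP2 targets also gave no such order. The 4 measured of 6 listed were 1 higher and 3 lower (median -0.01), between Tmem97 at 0.07 and the sterol carrier Stard4 at -0.23. The transcription factor SREBP1 and lipogenic genes, which depend more on insulin and the liver X receptor, numbered 7 higher and 8 lower of 15 (median -0.01). Srebf1 had the highest difference among them (0.23), at 4.78, 4.35 and 5.82 on LRRK2-GS arrays 1, 2 and 3, against 4.78 and 4.73 on LRRK2-WT arrays 1 and 2. The desaturase Fads1 (-0.72) was the single lipogenic gene over 1.5-fold, at 7.30, 6.63 and 7.43 on LRRK2-GS arrays 1, 2 and 3, against 8.25 and 7.43 on LRRK2-WT arrays 1 and 2. Scd1, the stearoyl-CoA desaturase, was named after its values were seen. It was at 3.81, 5.22 and 7.33 on LRRK2-GS arrays 1, 2 and 3, against 6.61 and 4.25 on LRRK2-WT arrays 1 and 2. LRRK2-GS array 3 was thus the highest for Scd1 where it was the lowest for Sqle. The lipogenic list as a whole did not show this. In 4 of its 15 genes array 3 lay above both LRRK2-WT arrays, and in 5 below both. Of all 23396 tested probe sets, 5474 had array 3 above both and 5562 below both.

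Genes of sterol efflux were 5 higher and 2 lower of 7 measured (median 0.07), from Mylip, a ubiquitin ligase induced by the liver X receptor (-0.29), to the biliary sterol transporter Abcg8 (0.39). Abcg8 was at 6.43, 6.37 and 7.38 on LRRK2-GS arrays 1, 2 and 3, against 6.62 and 6.05 on LRRK2-WT arrays 1 and 2, again with LRRK2-GS array 3 highest. Its partner Abcg5, also named after its values were seen, was highest there too (7.42). Over the 7 efflux genes, array 3 lay above both LRRK2-WT arrays in 4 and below both in 1. The enzymes that take isoprenoids to dolichol, ubiquinone and prenylated proteins were 3 higher and 6 lower of 9 (median -0.04), from Coq2 (-0.52) to Rabggtb (0.41). limma called 0 genes of these lists, and 0 had an unadjusted p under 0.05.

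**Figure D5:**
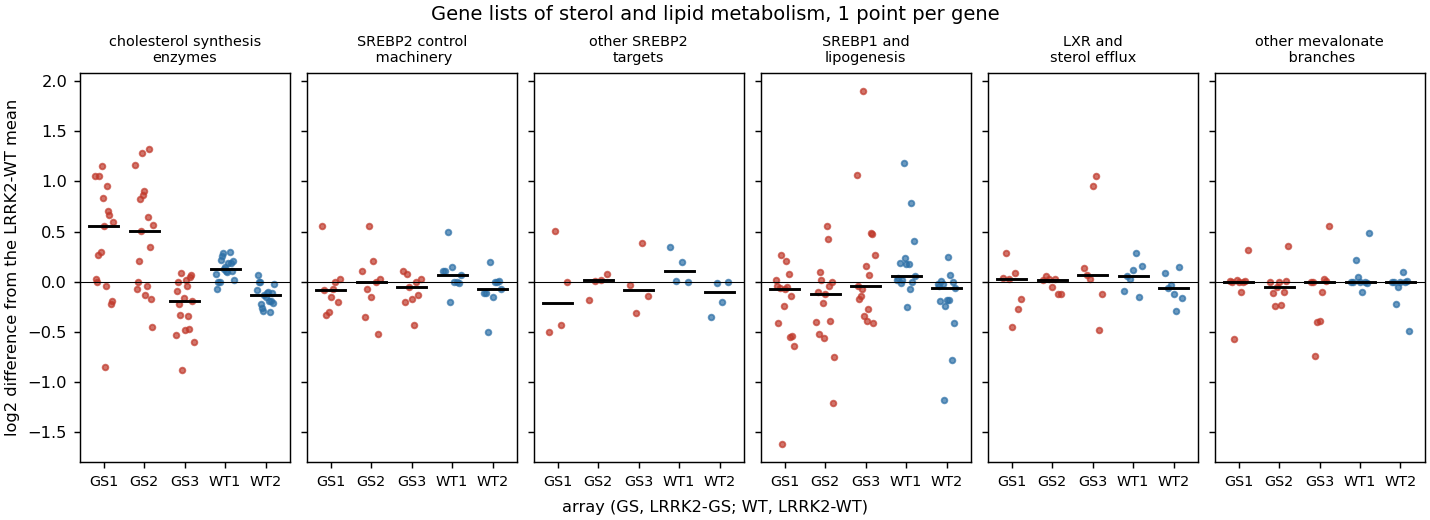
Log2 difference of each gene from its LRRK2-WT mean (vertical axis) on each array (horizontal axis, LRRK2-GS arrays GS1 to GS3 left of LRRK2-WT arrays WT1 and WT2) for 6 gene lists, with 1 point per gene and a bar at the list median. In the enzyme list the medians are 0.56, 0.51 and -0.19 on the LRRK2-GS arrays, and in the other lists they lie between -0.21 and 0.07 on those arrays.

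Marker levels are given beside the order of the LRRK2-GS arrays. The summed level of the 14 hepatocyte markers (log2 of the summed linear values) was 15.25, 15.31 and 15.50 on LRRK2-GS arrays 1, 2 and 3, against 15.49 and 15.51 on LRRK2-WT arrays 1 and 2. Of the 14, 2 were higher and 12 lower in LRRK2-GS, with a median difference of -0.10. LRRK2-GS array 3 was the highest of its genotype for 8 of the 14 and the lowest for 4. The urea cycle gene Cps1 (10.99, 10.92 and 11.58, against 11.60 and 11.73 in LRRK2-WT) was among the 8. The fibrinogen gene Fgb (12.18, 12.31 and 12.10) was among the 4. The summed level of the 15 astrocyte markers was 9.93, 10.24 and 10.62 on LRRK2-GS arrays 1, 2 and 3, against 10.53 and 10.37 on LRRK2-WT arrays 1 and 2. That sum is carried by the brightest markers, such as Ndrg2 (8.48, 9.13 and 9.80 in LRRK2-GS). Only 3 of the 15, Aldh1l1, Ndrg2 and Slc4a4, were over 6.42 on every array. The sum therefore says little about the other astrocyte markers, of which 5 had a mean no higher than background. Over the list, array 3 was the highest of its genotype for 5 and the lowest for 4 of the 15, for example Slc4a4 (8.08, 8.25 and 7.46). The part of these markers in the result was not tested. Xist was at 2.41, 2.65 and 2.64 and Eif2s3y at 6.13, 6.68 and 6.42 on LRRK2-GS arrays 1, 2 and 3, and their part was not tested. Endothelial markers, 6 of 6 lower in LRRK2-GS, had a summed level of 8.53 to 8.67 in LRRK2-GS and 8.75 to 9.06 in LRRK2-WT, and their part was not tested either.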

How the data were processed

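RNA of 5 arrays (3 LRRK2-GS and 2 LRRK2-WT, grouped by their titles) was compared. The authors used the Affymetrix Command Console software for export and processing, and deposited 1 table of log2 expression values for 33640 probe sets. Background correction, summarization, scaling and any filter were not given in the sources used here, so their effect on the tied values is unknown. Median log2 values per array were 3.26 to 3.28. No further normalization or filter was applied. Probe sets with exactly 1 symbol (23396) took their gene names from the annotation of the platform, brought up to GRCm38.p6 through the gene ID (23203 found), while 1812 with several symbols and 8432 with none were left out. Linear models were fitted across all tested probe sets in R 4.3.3 with limma 3.58.1 (eBayes at its defaults, prior degrees of freedom 0.595), with two-sided p-values and Benjamini-Hochberg adjustment.

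The genes, lists and motifs were chosen with earlier results of these data known. Named genes were the 7 of the rule, any measured synthesis enzyme, the largest rise and fall of each other list with any gene over 1.5-fold, the 5 nearest patterns and markers. Medians and counts over lists carry no test. Arrays limit the precision by their number. The markers of microglia and macrophages, fibroblasts and stellate cells, neurons and oligodendrocytes had median differences of -0.03, 0.04, 0.00 and 0.00. In the first list, of 8 measured, the genotypes did not overlap for Cd68 (difference 0.67), Aif1 (0.14) and Csf1r (-0.29). Over all tested probe sets 7.5% did not overlap in either direction. Aif1 had the same value, 4.07, on every LRRK2-GS array. In the other lists named here only Olig2 (0.13), under background on every array, did not overlap. Alternatives were quantile, cyclic loess and median scaling, a filter on dim probe sets, array weights, a robust prior with a trend, testing the whole table, averaging a gene's probe sets, a block for the replicate number, the methods' t-test, and each array left out in turn.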

Additional observations from a re-analysis of the deposited data

How the results depend on the processing

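Under every alternative 0 of the 6 genes were called, by limma or the methods' t-test, and the signs of Hmgcs1, Sqle, Fdps, Lss and Srebf2 did not turn. The robust prior with a trend, the dim filter, the whole table, averaging and the t-test leave the differences of these genes unchanged. No sign could turn under those alternatives. Leaving out 1 array at a time gave differences of 0.11 to 0.37 for Srebf2, 0.26 to 1.11 for Hmgcs1, 0.14 to 1.21 for Sqle, 0.24 to 0.93 for Fdps, 0.33 to 0.84 for Lss and -0.60 to 0.39 for Insig1, which turned positive when LRRK2-GS array 1 (0.01) or LRRK2-WT array 1 (0.39) was left out. The cause was not tested. The genes over 1.5-fold numbered 0 to 4 of 6, against 1.03% to 2.15% of all probe sets, and those not overlapping 0 to 4. All probe sets not overlapping were 31.8% without LRRK2-WT array 1 (2 of the 6), 32.4% without LRRK2-WT array 2 (1 of the 6), and 16.1% without LRRK2-GS array 3 (4 of the 6), while 0 to 28 of all probe sets were called. The list medians ranged from 0.04 to 0.51 for the enzymes, -0.14 to 0.00 for the SREBP2 machinery, -0.11 to 0.10 for other SREBP2 targets, -0.14 to 0.01 for lipogenesis, 0.02 to 0.09 for sterol efflux and -0.06 to 0.00 for the other branches. With 1 LRRK2-WT array left, its spread was taken to be that of LRRK2-GS, and limma called 26 (without array 1) and 28 (without array 2) of all probe sets.

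With array weights 2 of the 6 were over 1.5-fold (1.02% of all probe sets), and with quantile normalization 1 was (0.919%) and 1 did not overlap (28.8%, against 7.5% of the deposited values). The dim filter gave a median of -0.08 for the other branches. With the replicate number as a block 4 of the 6 were over 1.5-fold (1.97%), and the median was 0.00 for the SREBP2 machinery and -0.10 for lipogenesis. That fit takes nothing from LRRK2-GS array 3, which alone has its number, so its differences equal those without that array, for example 1.21 for Sqle. The numbers are shared as labels only, with correlations of same-numbered deviations of -0.126 and 0.088. With 5 arrays, the intervals of Hmgcs1, Sqle, Fdps, Lss and Insig1 include changes over 1.5-fold in either direction. That of Srebf2 includes a rise over 1.5-fold.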
